A study of Mus musculus with 9 samples.

Results

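Osteoclasts, the cells that resorb bone, were followed in mouse osteosarcoma through 9 genes of their cell surface and their fusion: Dcstamp, Ocstamp, Oscar, Siglec15, Trem2, Tyrobp, Calcr, Nfatc1 and Itgb3. They were taken by gene symbol from the 55367 genes of the deposited RNA-Seq count table. The genes were chosen from earlier results of these same tumors, in which Dcstamp, Oscar and Calcr were among the most strongly lowered genes, so the comparison of the genotypes was part of the choice. For these 9 genes it is therefore given below as a description. Where a count of them past edgeR's threshold is printed, it stands beside the count over all genes and is not used as a test.

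Whole spontaneous tumors from genetically engineered mice were sequenced, 4 of them p53 driven (Col2.3-Cre/TrpP53fl/+; F187, F325, F331 and F368) and 5 of them Myc knockin (Cre together with Lox-Stop-Lox;(LSL)-c-MycT58A and with p53fl/+; M351, M408, M9, M624 and M664). In both models Cre is driven by the osteoblast-specific Col2.3 promoter and 1 floxed Trp53 allele is present, so the p53-driven tumors are not wild-type controls. The Myc-knockin mice carry in addition a Myc allele that Cre switches on and that codes for a stabilized protein. Cre is directed to osteoblasts and not to the osteoclast lineage, and the osteoclasts and macrophages in a tumor are host cells. Myc, the targeted gene, had between 43.48 and 67.12 CPM (read counts relative to a library size scaled by edgeR's TMM method) in the p53-driven tumors and between 144.2 and 1045 CPM in the Myc-knockin tumors. The labels give no age, sex or batch for single tumors.

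Osteoclasts arise when mononuclear precursors of the macrophage lineage, kept alive by CSF1 and instructed by RANK ligand, switch on the transcription factor NFATc1 and fuse into multinucleated cells. RANK signaling is joined by costimulatory receptors, which lack signaling tails of their own and pair with the adaptors DAP12 (the product of Tyrobp) or FcR gamma (the product of Fcer1g). Phosphorylation of these adaptors recruits the kinase SYK and raises calcium, which activates NFATc1. In bone tumors osteoclasts resorb the bone around the lesion, and several of these genes, Tyrobp and Trem2 above all, are also used by macrophages.

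The libraries differed in ways that bear on genes with few reads. Total counts ranged from 2716322 in M351 to 17073285 in M624, and 3 reads, taken as the floor of detection, were worth 0.114 CPM in M624 and 2.39 CPM in M9. Reads on 12 genes made of satellite repeats came to 44.3% of the counts in F187, 67.9% in M351, 23.2% in M408 and 81% in M9, and to at most 0.0242% elsewhere. Reads on 1542 chemosensory receptor genes, which bone tumors are not known to use, gave an estimate of genomic background per kilobase of exon, and it was highest in M9 (1.23 reads per kilobase) and M351 (1.12). M624 and M664 differed in another way, with 3.467 and 6.347 CPM of the RNA Rn7sk against at least 6545 CPM in the other 7. In whole tumors, fewer osteoclasts and less RNA per osteoclast cannot be told apart.

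The promoter table used here matched 3 of the 9 genes by symbol. The upstream sequences of Oscar and Trem2 are shown because their group means differed in opposite directions, with groups that overlapped for Trem2. They cover the 250 bases before the start of each gene, written 5′ to 3′ on the gene's strand, from RefSeq (GRCm38.p6). Oscar lies on the minus strand (chr7:3616158-3616407) and Trem2 on the plus strand (chr17:48346151-48346400).
Oscar: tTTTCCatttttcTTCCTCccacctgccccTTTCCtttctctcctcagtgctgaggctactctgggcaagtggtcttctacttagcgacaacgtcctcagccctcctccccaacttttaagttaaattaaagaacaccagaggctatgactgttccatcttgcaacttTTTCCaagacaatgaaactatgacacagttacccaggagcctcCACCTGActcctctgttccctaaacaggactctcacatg
Trem2: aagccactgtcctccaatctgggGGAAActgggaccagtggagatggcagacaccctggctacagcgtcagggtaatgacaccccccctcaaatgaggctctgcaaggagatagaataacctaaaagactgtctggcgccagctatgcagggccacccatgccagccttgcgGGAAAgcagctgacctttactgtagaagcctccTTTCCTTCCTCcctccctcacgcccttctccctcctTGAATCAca
Capitals mark the letters of 4 motifs found on either strand: the NFAT core GGAAA, the PU.1 core GAGGAA, the AP-1 site TGANTCA and the pattern TCANGTG. N stands for any letter, so TCANGTG is looser than the M-box bound by MITF. Its copy in the Oscar window, printed as CACCTGA, reads TCAGGTG on the other strand and is not taken as a MITF site. GAGGAA and GGAAA can share letters, but their copies do not in these windows, and they lie side by side in the run near the end of the Trem2 sequence. The E-box CACGTG, bound by MYC with MAX, was not found in either window. Oscar held 3 copies of GGAAA, 1 of GAGGAA and 1 of TCANGTG, and Trem2 held 3 of GGAAA, 1 of GAGGAA and 1 of TGANTCA. Among 32851 promoter windows searched over the same 250 upstream bases, 55.6% held GGAAA, 23.3% GAGGAA, 12.2% TCANGTG, 6.7% TGANTCA and 6.0% CACGTG. The matches are a description of these letters and not of bound factors.

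All 9 genes passed the filter on low counts, and 8 of them had a lower mean in the Myc-knockin tumors. For these 8, every Myc-knockin tumor lay below every p53-driven tumor, a pattern held by 7.54% of the 15365 genes tested. With a fold change over 1.5 and an adjusted p under 0.05 required for a call, edgeR's quasi-likelihood test called 7 of the 9 lower and 0 higher, against 3.00% of all tested genes called lower and 2.26% called higher. Trem2 and Itgb3 were the exceptions. Because the genes were chosen on this contrast, nothing is read from these counts. Over the 9 genes the median log2 fold change (Myc knockin minus p53 driven) was -2.76, and over all genes tested it was 0.14.

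**Figure D1:**
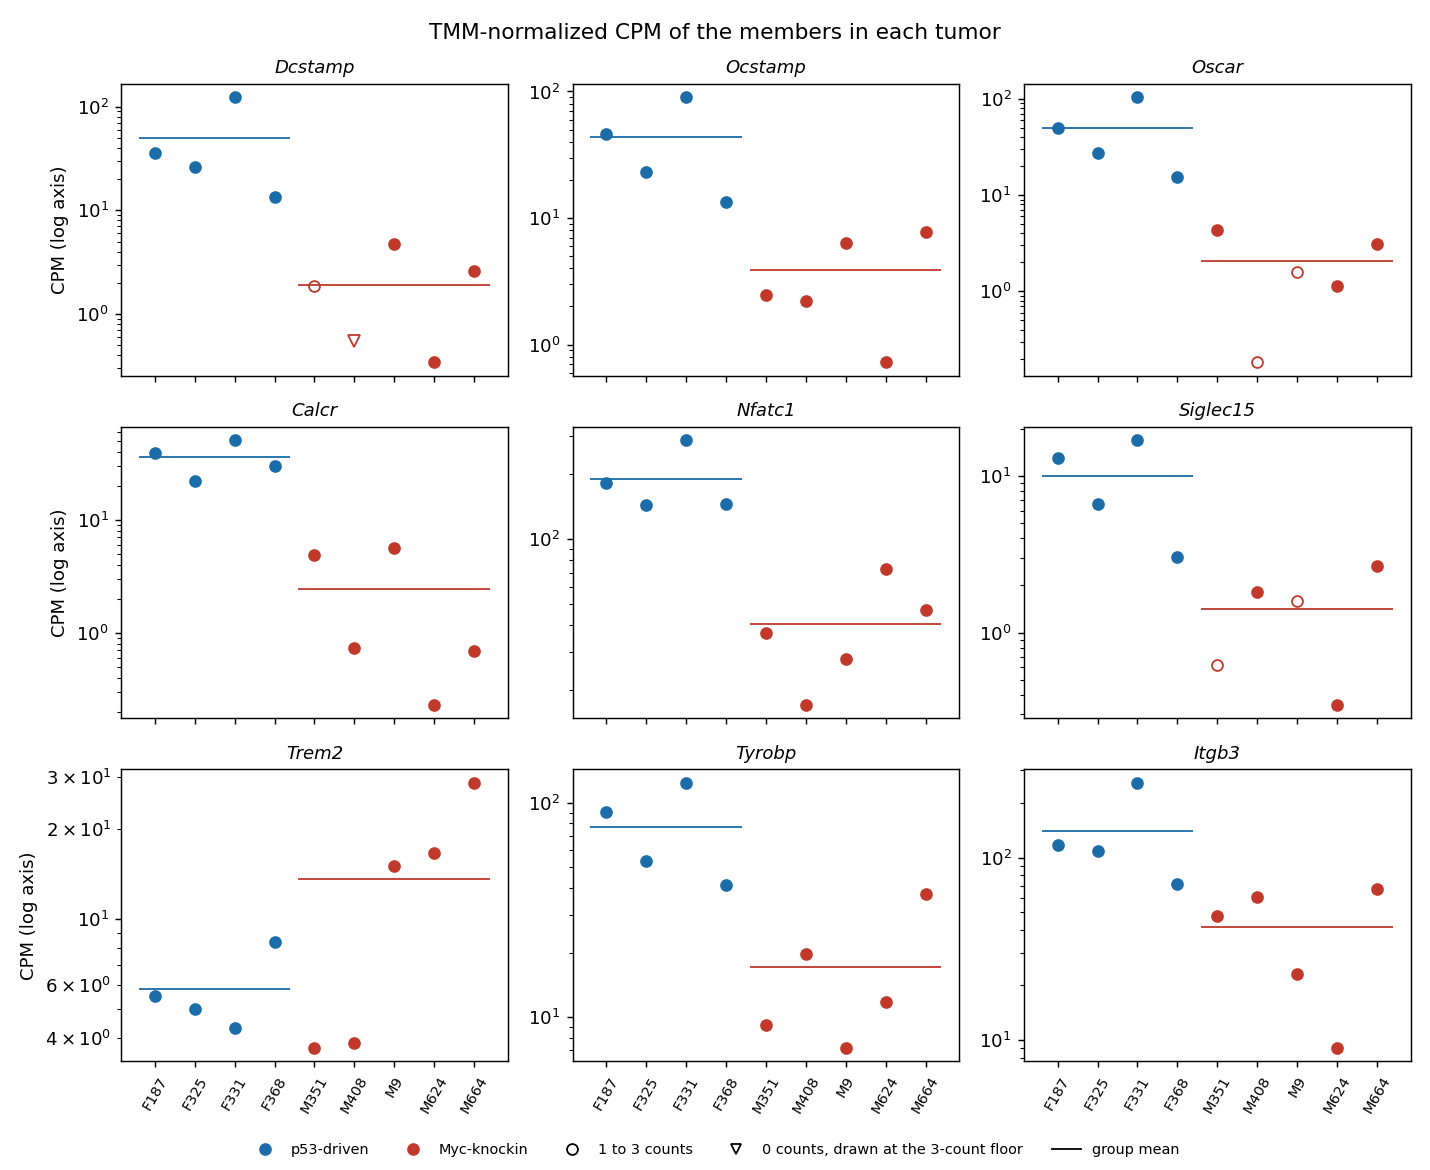
TMM-normalized CPM of the 9 genes (log axes) in each of the 4 p53-driven and 5 Myc-knockin tumors, with the group means as lines, open circles for 1 to 3 counts and an open triangle for 0 counts drawn at the floor of 3 counts. In 8 panels all Myc-knockin tumors lie below all p53-driven tumors, and in the Trem2 panel the groups overlap.

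The fusion genes Dcstamp and Ocstamp encode multipass membrane proteins that precursors need in order to join into multinucleated osteoclasts. Dcstamp (ENSMUSG00000022303, chromosome 15 of mm10 from 39745930 to 39760938, plus strand) had 35.5 CPM in F187, 26.1 in F325, 124 in F331 and 13.5 in F368. In the Myc-knockin tumors it had 1.85 CPM in M351, 0 in M408, 4.78 in M9, 0.343 in M624 and 2.59 in M664. The lowest p53-driven tumor thus stood above the highest Myc-knockin tumor, and the p53-driven tumors themselves spanned 9.19-fold. The means were 49.8 ± 50.3 CPM (SD, n = 4) and 1.91 ± 1.92 CPM (SD, n = 5), with a log2 fold change of -5.02 ± 0.99 (standard error). The Myc-knockin values rest on 3 reads in M351, 6 in M9 and 9 in M624, and 60 in M664. With 3.0 reads expected as background in M351 and 3.3 in M9, Dcstamp in M351 was at the background level. The 0 reads in M408 lie under the floor of 3 reads, which is 0.549 CPM there, and the upper bound of their 95% exact binomial interval is 0.676 CPM.

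Ocstamp (ENSMUSG00000027670, chromosome 2 from 165393760 to 165400405, minus strand) had 46.2, 23.2, 90.6 and 13.5 CPM in F187, F325, F331 and F368. Its Myc-knockin values were 2.46 CPM in M351, 2.20 in M408, 6.37 in M9, 0.724 in M624 and 7.73 in M664. F331 was again the highest and F368 the lowest of the p53-driven tumors, and M624 was the lowest of all 9. The means were 43.4 ± 34.4 CPM (SD, n = 4) and 3.90 ± 2.99 CPM (SD, n = 5), with a log2 fold change of -3.50 ± 0.73 (standard error). In M664 the level rested on 179 reads, so Ocstamp RNA was present there well above the 3-read floor of 0.13 CPM, whereas the 4 reads in M351 and 8 in M9 stood against 4.1 and 4.5 expected as background.

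The balance of the fusion genes within a tumor was taken as log2 CPM (prior count of 2) of Dcstamp minus that of Ocstamp, which is not adjusted for gene length and serves only to compare tumors. It was 0.06 ± 0.35 (SD, n = 4) in the p53-driven group, with -0.38 in F187 as the lowest value, and -1.34 ± 1.36 (SD, n = 5) in the Myc-knockin group. Of the Myc-knockin tumors, M408 at -3.63 and M664 at -1.51 lay furthest toward Ocstamp, and M351 at -0.38 and M9 at -0.40 were next to F187. Dcstamp had 0 reads in M408, so the value there depends on the prior count. In M351 Dcstamp had 3 reads and Ocstamp 4, against 3.0 and 4.1 expected as background. In M9 they had 6 and 8 reads, against 3.3 and 4.5. The balance was thus not resolved from background in M351 and M9.

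The costimulatory receptors came apart. Oscar, which binds collagen and signals through FcR gamma, and Siglec15, a sialic acid-binding lectin that pairs with DAP12, were lower in every Myc-knockin tumor, while Trem2, another DAP12 partner found on macrophages as well as osteoclast precursors, had the higher mean there. Oscar (ENSMUSG00000054594, chromosome 7 from 3609813 to 3616157, minus strand) had 49.8, 27.1, 105 and 15.4 CPM in F187, F325, F331 and F368. In the Myc-knockin tumors it had 4.31 CPM in M351, 0.183 in M408, 1.59 in M9, 1.14 in M624 and 3.07 in M664. All 5 were below the lowest p53-driven value. The means of 49.3 ± 39.6 CPM (SD, n = 4) and 2.06 ± 1.63 CPM (SD, n = 5) differed by a log2 fold change of -4.68 ± 0.76 (standard error). M408 had 1 read (0.00464 to 1.02 CPM, 95% exact binomial interval, which covers counting error only) and M9 had 2, with 2.3 expected there as background.

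Siglec15 (ENSMUSG00000091055, chromosome 18 from 78043614 to 78057395, minus strand) had a low level in every tumor. Its p53-driven values were 13.0 CPM in F187, 6.69 in F325, 17.1 in F331 and 3.04 in F368, and its Myc-knockin values were 0.616 CPM in M351, 1.83 in M408, 1.59 in M9, 0.343 in M624 and 2.68 in M664. The groups did not overlap, but F368 at 3.04 and M664 at 2.68 CPM were close. The means were 9.97 ± 6.31 CPM (SD, n = 4) and 1.41 ± 0.947 CPM (SD, n = 5), with a log2 fold change of -2.76 ± 0.71 (standard error). M351 held 1 read and M9 2, with intervals that reach 3.43 and 5.76 CPM and so include the value of F368.

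Trem2 (ENSMUSG00000023992, chromosome 17 from 48346401 to 48354147, plus strand) had 5.53, 4.98, 4.32 and 8.39 CPM in F187, F325, F331 and F368. Among the Myc-knockin tumors M351 had 3.69 CPM and M408 3.85, below all p53-driven tumors, and M9 had 15.1, M624 16.7 and M664 28.7, above all of them. F331, the highest p53-driven tumor for each of the other 8 genes, was the lowest for Trem2. The means were 5.81 ± 1.79 CPM (SD, n = 4) and 13.6 ± 10.4 CPM (SD, n = 5), with a log2 fold change of 1.25 ± 0.60 (standard error), and the groups overlapped. The log2 fold change was 0.36 with M624 and M664 left out, and 1.98 over the 5 with almost no satellite reads. The values in M624 and M664 rest on 439 and 665 reads, and the 19 reads in M9 stood against 6.1 expected as background.

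Tyrobp (ENSMUSG00000030579, chromosome 7 from 30413760 to 30417585, plus strand), the adaptor that Trem2 and Siglec15 share, had 90.5, 53.7, 124 and 41.2 CPM in F187, F325, F331 and F368. It had 9.23 CPM in M351, 19.8 in M408, 7.17 in M9, 11.8 in M624 and 37.4 in M664. The groups did not overlap, although M664 reached almost the level of F368. The means were 77.4 ± 37.6 CPM (SD, n = 4) and 17.1 ± 12.3 CPM (SD, n = 5), with a log2 fold change of -2.13 ± 0.50 (standard error), and M664 alone made up 43.7% of the Myc-knockin sum.

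Set against its adaptor gene, Trem2 was higher in 4 of 5 Myc-knockin tumors than in any p53-driven tumor. Trem2 minus Tyrobp in log2 CPM was -3.99 in F187, -3.38 in F325, -4.79 in F331 and -2.27 in F368, and it was -1.28 in M351, -2.31 in M408, 1.06 in M9, 0.49 in M624 and -0.38 in M664. The value of M351 rests on 6 reads of Trem2, of which 5.5 were expected as background. The groups overlapped through F368 and M408, with means of -3.61 ± 1.06 (SD, n = 4) and -0.48 ± 1.35 (SD, n = 5). Siglec15 minus Tyrobp differed by less than its spread, at -3.07 ± 0.42 (SD, n = 4) and -3.42 ± 0.89 (SD, n = 5). Siglec15 had 1 read in M351 and 2 in M9, against 1.3 and 1.4 expected as background, so its balance was not resolved there. For Oscar and its adaptor gene Fcer1g the differences were -1.07 ± 0.98 (SD, n = 4) and -4.27 ± 1.76 (SD, n = 5), and Fcer1g itself, at 83.1 ± 21.6 and 38.8 ± 24.6 CPM (SD, n = 4 and n = 5), was not called (log2 fold change -1.09, edgeR adjusted p = 0.155). The lowest Oscar minus Fcer1g values, -6.73 in M408 and -4.77 in M9, rest on 1 and 2 reads of Oscar, against 0.3 and 2.3 expected as background.

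**Figure D2:**
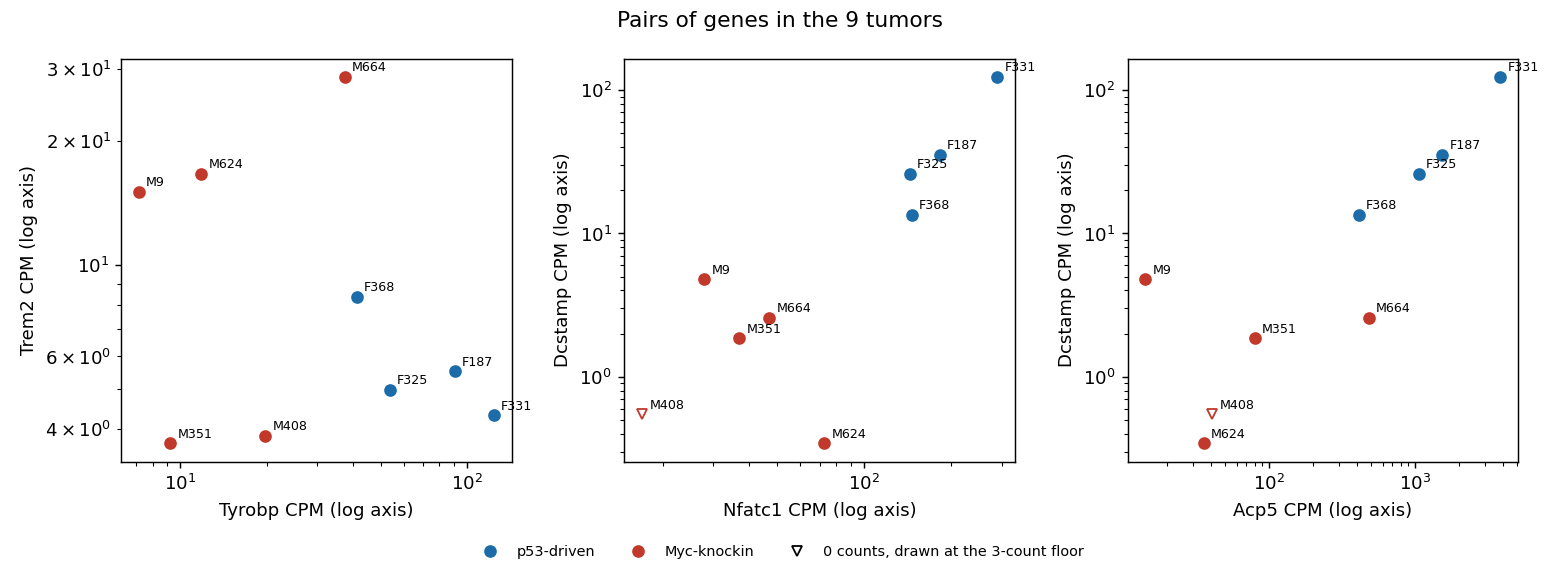
CPM of 3 pairs of genes (log axes) in the 9 tumors, each point a tumor named by its column, with M408 drawn at the floor of 3 counts where Dcstamp had 0. Trem2 is plotted against its adaptor gene Tyrobp, and Dcstamp against Nfatc1 and Acp5, and M664 lies beside F368 in Acp5 but below it in Dcstamp.

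Nfatc1 (ENSMUSG00000033016, chromosome 18 from 80606205 to 80713071, minus strand) encodes the transcription factor that drives Dcstamp, Oscar, Calcr and Itgb3 in osteoclasts. It had 183, 144, 289 and 146 CPM in F187, F325, F331 and F368, and 36.9 CPM in M351, 17.0 in M408, 27.9 in M9, 72.6 in M624 and 46.9 in M664. The highest Myc-knockin tumor, M624, reached 72.6 CPM while having the lowest Dcstamp level above 0. The means were 190 ± 68.1 CPM (SD, n = 4) and 40.3 ± 21.2 CPM (SD, n = 5), with a log2 fold change of -2.23 ± 0.41 (standard error). Dcstamp minus Nfatc1 in log2 CPM had a p53-driven mean of -2.36 ± 0.90 (SD, n = 4) and a Myc-knockin mean of -4.86 ± 1.88 (SD, n = 5), with -7.08 in M624. The value of -6.47 in M408 depends on the prior count, as Dcstamp had 0 reads there. In M351 and M9 Dcstamp had 3 and 6 reads, against 3.0 and 3.3 expected as background. The difference was thus not resolved in these tumors.

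Calcr (ENSMUSG00000023964, chromosome 6 from 3685680 to 3764714, minus strand) encodes the calcitonin receptor, a G protein-coupled receptor of mature osteoclasts through which calcitonin halts resorption. Its p53-driven values spanned 2.29-fold, less than those of Dcstamp, Ocstamp and Oscar, at 39.1 CPM in F187, 22.2 in F325, 50.9 in F331 and 29.9 in F368. The Myc-knockin values were 4.92 CPM in M351, 0.733 in M408, 5.58 in M9, 0.229 in M624 and 0.691 in M664. The higher ones came from the libraries with most background, where 8 reads stood against 4.4 expected in M351 and 7 against 4.8 in M9. The means were 35.6 ± 12.4 CPM (SD, n = 4) and 2.43 ± 2.59 CPM (SD, n = 5), with a log2 fold change of -4.44 ± 0.84 (standard error). Over the libraries without satellite reads, F325, F331 and F368 against M624 and M664, it was -6.20 ± 0.74 (standard error).

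Itgb3 (ENSMUSG00000020689, chromosome 11 from 104608000 to 104670476, plus strand) encodes the beta chain of the vitronectin receptor, with which osteoclasts hold on to bone. It had 117, 109, 257 and 72.0 CPM in F187, F325, F331 and F368. The Myc-knockin values were 48.0 CPM in M351, 61.0 in M408, 23.1 in M9, 9.03 in M624 and 67.4 in M664, with M664 just under F368. The means were 139 ± 81.4 CPM (SD, n = 4) and 41.7 ± 24.9 CPM (SD, n = 5), with the smallest log2 fold change among the 8 lower genes, -1.73 ± 0.55 (standard error). Platelets also carry this chain, and the summed level of 8 megakaryocyte and platelet markers was 6.83 to 13.0 CPM in the p53-driven and 6.55 to 32.9 CPM in the Myc-knockin tumors. Its osteoclast partner Itgav fell from 587 ± 149 CPM (SD, n = 4) to 104 ± 41.4 CPM (SD, n = 5), with a log2 fold change of -2.50 ± 0.38 (standard error, edgeR adjusted p = 0.0175).

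Compared per kilobase of merged exons, Tyrobp was the most abundant of the 9 in both groups, at 116 and 25.6 CPM per kilobase in the p53-driven and Myc-knockin tumors. In the p53-driven tumors Oscar (26.7 ± 21.4 CPM per kilobase, SD, n = 4), Nfatc1 (25.5 ± 9.12), Itgb3 (23.5 ± 13.8) and Dcstamp (18.7 ± 18.9) followed, and these neighbors did not differ beyond their spread. Ocstamp at 11.9, Calcr at 9.09 and Siglec15 at 8.63 CPM per kilobase came next, and Trem2 was last at 1.17. In the Myc-knockin tumors the order after Tyrobp was Itgb3 (7.07 ± 4.22 CPM per kilobase, SD, n = 5), Nfatc1 (5.39 ± 2.83) and Trem2 (2.75 ± 2.11), and the other 5 lay between 0.621 for Calcr and 1.22 for Siglec15. Trem2 was thus the least abundant in the p53-driven tumors and the 4th of 9 in the Myc-knockin tumors.

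Most of the 9 genes ranked the p53-driven tumors alike. F331 was the highest p53-driven tumor for 8 genes and F368 the lowest for 6, and among the Myc-knockin tumors M664 was the highest for 5 and M624 the lowest for 4. M408, M351 and M9 took the lowest place for 3, 1 and 1 genes. The order of the p53-driven tumors was the same for Dcstamp, Ocstamp, Oscar, Siglec15, Tyrobp and Itgb3, with F331 above F187, F325 and F368 in turn.

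In M351 and M9 the reads on several of these genes were few and close to the genomic background. In M351 the background estimate came to 8.3 of 60 reads for Nfatc1, 6.6 of 78 for Itgb3, 0.7 of 15 for Tyrobp and 5.5 of 6 for Trem2. In M9 it came to 9.2 of 35 reads for Nfatc1, 7.2 of 29 for Itgb3 and 0.8 of 9 for Tyrobp. Nfatc1, Itgb3 and Tyrobp were thus measured above background in both libraries, while the levels of Dcstamp, Ocstamp and Siglec15 there were not distinguishable from it at this depth. With the estimated background subtracted from every gene in every library, the log2 fold change was -5.46 ± 1.00 (standard error) for Dcstamp, -5.44 ± 0.69 for Calcr, -2.22 ± 0.40 for Nfatc1 and 1.23 ± 0.80 for Trem2.

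**Figure D3:**
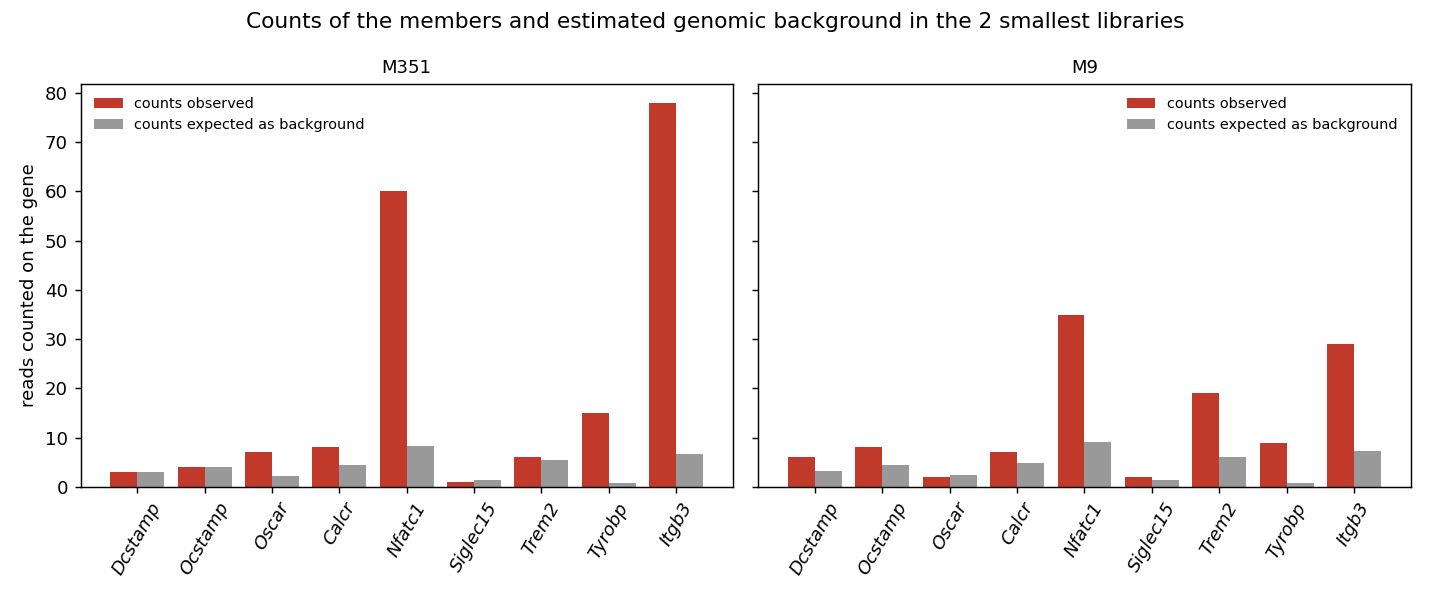
Reads counted on each of the 9 genes in M351 and M9 (red bars) beside the reads expected there as genomic background (gray bars), on a linear axis from 0. Nfatc1, Itgb3 and Tyrobp stand well above their background, and the bars of Dcstamp, Ocstamp and Siglec15 are within a few reads of it.

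The surrounding pathway was described with 103 other genes in 8 lists, of which 99 passed the filter. edgeR called 24 of them lower (24.2%) and 0 higher, against 3.00% and 2.26% of all genes tested. The median log2 fold change of the pathway genes was -1.02. At an unadjusted p under 0.05 there were 54 pathway genes with a negative and 4 with a positive log2 fold change. Over all genes, 4112 of the 15365 tested passed that threshold. DESeq2 called 3 pathway genes higher and limma-voom 1. With F325, F331 or F368 left out, edgeR called 1 of the pathway genes. The lists were drawn up with earlier results of these tumors known, so their counts are descriptions.

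Among 15 genes of RANK and CSF1 receptor signaling, the median log2 fold change was -0.51. Of the 15, 11 had a negative log2 fold change, and edgeR called 3 lower. These were the receptors of both cytokines and CSF1 itself. Tnfrsf11a, which encodes RANK, had 71.2 to 144 CPM in the p53-driven tumors and 3.85 to 22.8 CPM in the Myc-knockin tumors (log2 fold change -2.86 ± 0.48, standard error, edgeR adjusted p = 0.02). Csf1r fell by 2.47 on the log2 scale (edgeR adjusted p = 0.0243), with 241 to 495 CPM against 19.8 to 113 CPM. Csf1 fell by 3.00 on the log2 scale (edgeR adjusted p = 0.0148). Tnfsf11, the gene of RANK ligand, had 9.08 to 59.0 CPM against 2.97 to 13.0 CPM, overlapped between the groups and was not called (edgeR adjusted p = 0.101). Its decoy receptor gene Tnfrsf11b was not called either, with values from 2.17 to 96.0 CPM among the Myc-knockin tumors alone (edgeR adjusted p = 0.838).

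Of 10 transcription factors and repressors of the osteoclast lineage, 7 had a negative log2 fold change, and edgeR called 3 lower. Jdp2, an AP-1 family member needed for osteoclast formation, fell by 2.51 (edgeR adjusted p = 0.0195), and Prdm1, which encodes the repressor BLIMP1 that silences inhibitors of NFATc1, fell by 2.34 (edgeR adjusted p = 0.0252). Mitf, which acts beside NFATc1, fell by 1.63 on the log2 scale (edgeR adjusted p = 0.0328), from 41.1 ± 10.6 CPM (SD, n = 4) to 13.3 ± 5.87 CPM (SD, n = 5). The list's median log2 fold change was -0.60.

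Among 17 tested genes of ITAM partners, kinases and calcium signaling all 17 had a negative log2 fold change, with a median of -0.93, and Src, a kinase needed for the ruffled border, was the 1 that passed (log2 fold change -1.90 ± 0.30, standard error, edgeR adjusted p = 0.0188). Syk, the kinase that the adaptors recruit, had 49.4 ± 21.0 CPM (SD, n = 4) and 24.3 ± 8.63 CPM (SD, n = 5) and was not called (edgeR adjusted p = 0.102). Of 8 inhibitory receptors and phosphatases 0 were called by edgeR (3 had an unadjusted p under 0.05, and DESeq2 called 3 and limma-voom 2), with a median log2 fold change of -0.17.

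Among 14 other genes of cell fusion the median log2 fold change was -1.17. Of the 14, 11 had a negative log2 fold change, and edgeR called 5 lower. Atp6v0d2, a proton pump subunit that precursors need for fusion, had 260, 222, 533 and 121 CPM in F187, F325, F331 and F368 and between 8.76 and 22.8 CPM in the Myc-knockin tumors (log2 fold change -4.21 ± 0.49, standard error, edgeR adjusted p = 0.0116). Snx10, a sorting nexin of the same process, fell by 2.59 (edgeR adjusted p = 0.0176), and the protease gene Adam12 fell by 1.96 (edgeR adjusted p = 0.0334). Among 12 integrin and sealing zone genes all 12 had negative log2 fold changes, with a median of -0.98. edgeR called 4 lower, among them Itgav, Tln1 (-1.18, edgeR adjusted p = 0.0342) and Was (-1.52, edgeR adjusted p = 0.0412).

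All 13 resorption genes had a negative log2 fold change, with a median of -1.99, and DESeq2 and limma-voom each called 12 of them lower. edgeR called 7 lower. They included Atp6v1c1, a proton pump subunit (-1.99, edgeR adjusted p = 0.0188), the sodium-proton exchanger gene Slc9b2 (-2.92, edgeR adjusted p = 0.0229), Plekhm1, which acts in lysosome transport (-1.73, edgeR adjusted p = 0.0312), and Ctsk, the collagen-degrading cathepsin (-3.81 ± 0.86, standard error, edgeR adjusted p = 0.0348). Acp5, which encodes the acid phosphatase TRAP used to stain osteoclasts, had 1540, 1060, 3840 and 412 CPM in F187, F325, F331 and F368, and 80.0, 41.0, 14.3, 35.9 and 481 CPM in M351, M408, M9, M624 and M664. The groups overlapped through M664, and it was not called (log2 fold change -3.71 ± 1.03, standard error, edgeR adjusted p = 0.0576). With M664 left out it was -5.29 ± 0.83 (standard error) and was called, and DESeq2 and limma-voom called it with all 9 tumors. Mmp9 overlapped in the same way, with 1630 CPM in M664 against 1210 in F368 (log2 fold change -2.92, edgeR adjusted p = 0.0902). Without M664 its log2 fold change was -4.67 and it was called, as it was by DESeq2 and limma-voom over all tumors.

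The ligands and coreceptors of the 9 genes had 1 call among 10 tested genes, Fn1, a ligand of integrins (log2 fold change -2.37, edgeR adjusted p = 0.038), and a median log2 fold change of -0.80. The genes of the receptor activity-modifying proteins, which turn the calcitonin receptor into amylin receptors, were not called by edgeR over the 9 tumors. Ramp1 had a log2 fold change of -0.32 (edgeR adjusted p = 0.814), Ramp2 of 1.37 (edgeR adjusted p = 0.16) and Ramp3 of 2.61 (edgeR adjusted p = 0.0819). Ramp3 had 1.16 ± 0.489 CPM (SD, n = 4) and 6.64 ± 6.43 CPM (SD, n = 5), and M664 at 16.4 CPM was the highest. DESeq2 called Ramp3 higher (log2 fold change 2.64). With F187, M351, M408 and M9 left out, edgeR called both Ramp2 (2.09) and Ramp3 (3.31) higher, and with M9 alone left out it called Ramp2 (1.62).

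**Figure D4:**
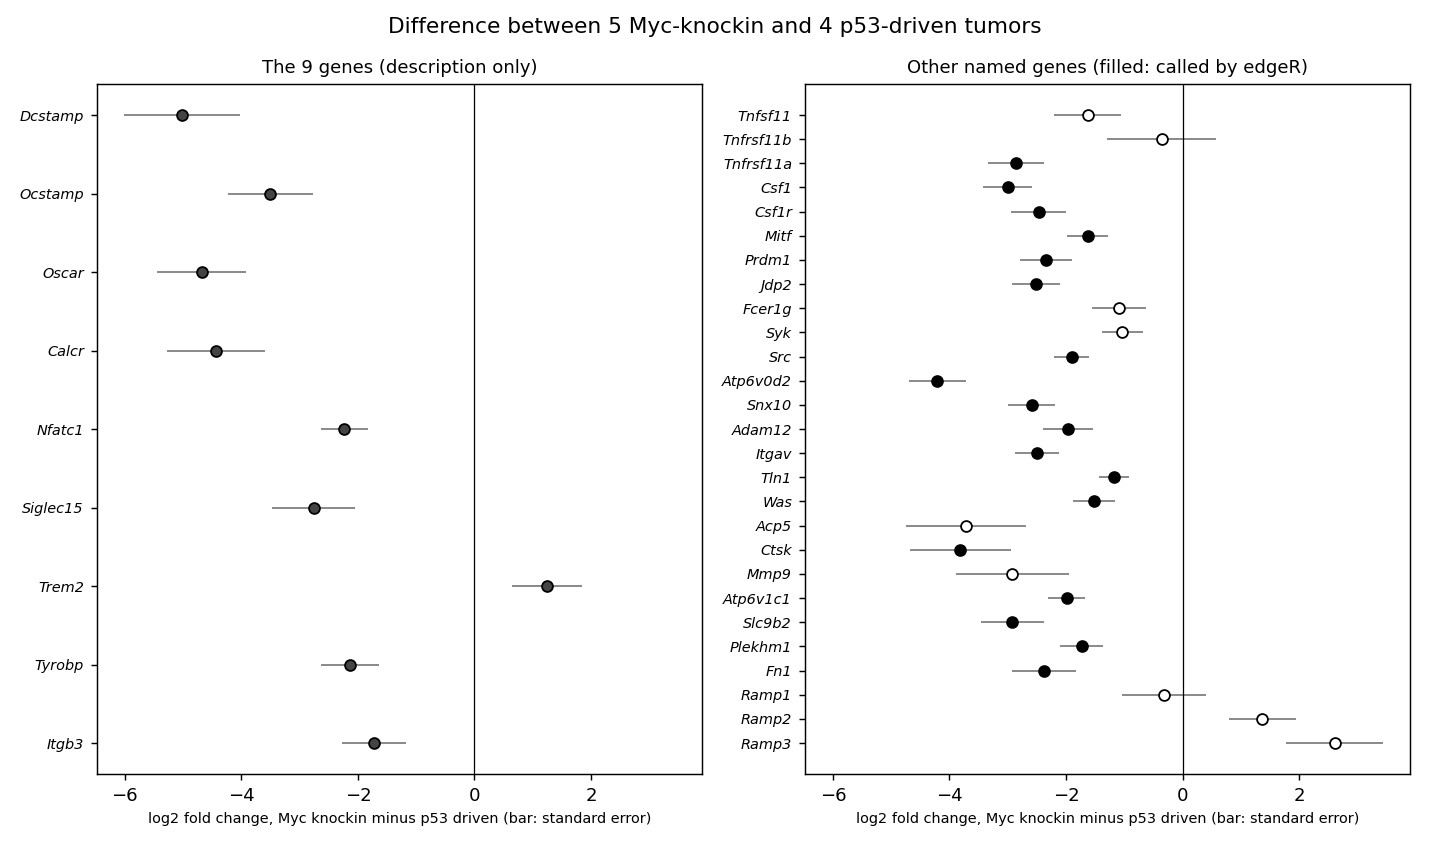
Log2 fold change (Myc knockin minus p53 driven, bars are standard errors) of the 9 genes, as a description, on the left, and of other named pathway genes on the right, filled where edgeR called them. Trem2 is the only one of the 9 above 0, and the called pathway genes all lie below 0.

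A pair of tumors, chosen after the values were seen, was compared gene by gene. F368 and M664 had similar Acp5 (412 and 481 CPM) and Mmp9 (1210 and 1630 CPM). Tyrobp, Siglec15 and Itgb3 were also similar, with ratios of F368 to M664 of 1.1, 1.14 and 1.07. The sums of 18 macrophage markers were 1550 CPM in F368 and 1270 CPM in M664, but single markers differed in both directions. In F368 and M664 in turn, Mrc1 had 207 and 34.3 CPM, Cd163 88.6 and 21.0 and Csf1r 269 and 113. C1qa had 86.2 and 172 CPM and C1qb 75.0 and 202. In the same pair Calcr was 43.3-fold higher in F368, with 0.395 to 1.12 CPM as the 95% exact binomial interval in M664. Dcstamp was 5.21-fold, Oscar 5.04-fold, Nfatc1 3.11-fold and Ocstamp 1.75-fold higher in F368, and Trem2 was lower, with a ratio of 0.292. Other resorption genes also differed within the pair, with ratios of F368 to M664 of 2.12 for Ctsk, 2.35 for Mmp14, 2.37 for Atp6v1c1 and 2.88 for Slc9b2, between those of Ocstamp and Nfatc1, and of 0.422 for Tcirg1. The rest of that list lay closer together, at 1.51 for Clcn7, 1.36 for Ostm1, 1.27 for Slc4a2, 1.21 for Plekhm1, 0.722 for Car2 and 0.598 for Ckb. Each side is a single tumor, so the ratios have no replicate check, and M664 is 1 of the 2 libraries with little Rn7sk. Dcstamp minus Acp5 in log2 CPM was -5.16 ± 0.26 (SD, n = 4) over the p53-driven tumors, with every tumor between -5.43 and -4.91, and it was -7.43 in M664, -7.73 in M408, -6.07 in M624, -5.30 in M351 and -1.55 in M9. M9 held 6 reads of Dcstamp, of which 3.3 were expected as background. The value of M408 depends on the prior count, because Dcstamp had 0 reads in that tumor. Dcstamp in M351 rested on 3 reads, no more than its background estimate of 3.0. Its balance with Acp5 was thus not resolved from background in M351 and M9.

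Markers of other cells differed between the groups in both directions. The median log2 fold change was -0.39 for macrophage, -0.68 for leukocyte, -1.08 for osteoblast and -0.51 for endothelial markers. It was 1.16 for megakaryocyte and 1.90 for neutrophil markers, with 3 and 4 tested genes. A negative log2 fold change was found for 12 of 17 macrophage, 6 of 10 leukocyte and all 6 skeletal muscle markers. Summed macrophage markers ranged from 906 to 1590 CPM in the p53-driven and from 432 to 1270 CPM in the Myc-knockin tumors, with 2 of 17 tested genes called lower, and summed leukocyte markers ranged from 476 to 859 CPM and from 171 to 425 CPM, with 1 of 10 called lower. Summed osteoblast markers ranged from 66300 to 142000 CPM and from 3690 to 42300 CPM, with 2 of 14 called lower. Most of this sum was Col1a1 (means of 67800 and 8490 CPM) and Col1a2 (45500 and 6230 CPM). Of the 14, 13 had a negative log2 fold change, from -5.42 for Bglap2 to -0.05 for Ifitm5, and Pth1r had 0.80. Endothelial (6 tested), neutrophil (4), skeletal muscle (6) and megakaryocyte markers (3) had 0 calls by edgeR (3 genes in all at an unadjusted p under 0.05, and 1 called by DESeq2, a neutrophil marker), and natural killer markers had 0 tested genes. Their sums were 333 to 479 and 101 to 498 CPM for endothelial, 5.06 to 16.3 and 4.0 to 134 CPM for neutrophil, 11.1 to 4740 and 2.67 to 1790 CPM for skeletal muscle, and 0.973 to 9.48 and 0.305 to 18.3 CPM for natural killer markers. In all 8 lists no marker was at 0 in all 9 tumors. The part of these cells in the levels of the 9 genes was not tested.

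The genes whose variation within the groups was most like that of each of the 9 were named by the mean absolute difference in log2 CPM over the 9 tumors, after each group's mean was taken off, among 11868 genes with at least 5 CPM on average. For Oscar they were Tm4sf19 (0.336), Fam57a (0.395) and Slc9b2 (0.398), where the median over all candidates was 1.09. Tm4sf19 encodes a tetraspan membrane protein, and it had 25.2 CPM in the p53-driven and 1.86 CPM in the Myc-knockin tumors. Mst1r (0.388), Mt3 (0.482) and Oscar (0.567) were nearest to Dcstamp, against a median of 1.37, and Mt3 (0.289), 2010300C02Rik (0.303) and Bmp6 (0.305) to Ocstamp, against 1.05. Nearest to Tyrobp were Junb (0.207), the leukocyte integrin gene Itgb2 (0.221) and Cstb (0.228). Siglec15 was followed by Dok1, Loxl3 and Cdh5, Itgb3 by Shtn1, Clec7a and Pstpip1, and Trem2 by Tmem222, Jund and Notch3. Calcr was nearest to Npas2, Cacna1d and Mecom, and Nfatc1 to Rad51d, Snx15 and Pex10, at differences between 0.15 and 0.299. Among the 9 genes themselves, Dcstamp and Oscar were close in both directions, with rank 3 from Dcstamp and rank 22 from Oscar, and Ocstamp and Siglec15 (0.414) took ranks 7 and 17. Dcstamp, Oscar, Ocstamp and Siglec15 had 12 reads or fewer each in M351, M408 and M9, so their likeness there rests on few reads. Nfatc1 placed each of the other 8 at rank 7644 or worse and Trem2 at rank 3326 or worse.

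Both kinds of libraries that stood apart were left out in turn. With M624 and M664 left out, 4 p53-driven tumors were set against M351, M408 and M9, and the log2 fold changes were -5.05 ± 1.24 (standard error) for Dcstamp, -3.67 ± 0.79 for Ocstamp, -4.96 ± 1.03 for Oscar, -3.49 ± 0.63 for Calcr and -2.78 ± 0.40 for Nfatc1. Those of Siglec15, Tyrobp and Itgb3 were -2.71 ± 0.73, -2.53 ± 0.52 and -1.57 ± 0.51. With F187, M351, M408 and M9 left out, F325, F331 and F368 were set against M624 and M664, where genomic background was below 0.05 reads per kilobase. The log2 fold changes there were -5.21 ± 1.41 (standard error) for Dcstamp, -3.32 ± 1.28 for Ocstamp, -4.54 ± 1.07 for Oscar, -1.68 ± 0.45 for Nfatc1, -2.55 ± 1.12 for Siglec15, -1.55 ± 0.70 for Tyrobp and -1.92 ± 0.95 for Itgb3. All of these tumors were among those on which the genes were chosen, so the values are a description and no count of calls is given for them.

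The number of the 9 genes called also depended on single tumors. Leaving out F325, F331 or F368 left 0 of the 9 called by edgeR, with 8 at an unadjusted p under 0.05 in each case, and leaving out F187 or M351 left 4. Over all genes tested, the same fits called 8, 6 and 5 genes without F325, F331 and F368, 335 without F187 and 371 without M351. Without F325, F331 and F368 in turn, 3141 of 16066, 3052 of 16021 and 2845 of 17122 genes tested had an unadjusted p under 0.05. The 9 were chosen on this contrast, so nothing is read from their counts. In every alternative run in which a gene could be fitted, the 8 lower genes had a negative log2 fold change and Trem2 a positive one, a direction that follows from how the genes were chosen where the groups do not overlap.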

How the data were processed

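RNA-Seq of 9 whole tumors was used. Per the labels and the study's methods, the authors used Trim Galore for trimming, STAR for mapping to mm10 and featureCounts for counting, and they deposited unnormalized read counts of 55367 genes. The library kit was a stranded one. The versions of STAR and featureCounts, the strand setting and the handling of multiply mapped reads are not given in the sources used here. Columns were assigned to groups from the study's supporting data (F187, F325, F331, F368, M408 and M624) or from the letter M alone (M351, M9 and M664), and none was tied to a numbered sample. The labels do not say more of how the tumors were sampled, so p-values measure the spread between these 9 tumors.

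Counts were compared in R 4.3.3 with edgeR 4.0.16 (TMM, filterByExpr with a minimum count of 10, glmQLFit and glmQLFTest, no covariates, Benjamini-Hochberg over 15365 genes), and a call required a fold change over 1.5 with an adjusted p under 0.05. DESeq2 1.42.0 and limma-voom (limma 3.58.1) were alternatives. Log2 CPM used a prior count of 2. Gene positions and exon lengths came from GENCODE, which held 55111 of the table's identifiers. The scripts were tested on simulated data with 200 changed genes. Intervals and floors (3 counts) cover counting error only.

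The 9 genes, the 8 pathway lists, the 8 marker lists and the alternatives were chosen with earlier results of these data known. The genes named are the 9, Myc, up to 3 called genes with the smallest adjusted p per pathway list and direction, 15 pathway genes fixed by name, and the 3 genes nearest in profile to each of the 9. Other values named, such as ratios between genes and the pair F368 and M664, were chosen after they were seen. Alternatives were upper-quartile normalization, library size alone, other count filters, DESeq2, limma-voom, removal of satellite genes, subtraction of genomic background, and left-out libraries. Protein, microRNA and human data were not analysed here.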

Additional observations from a re-analysis of the deposited data

Results flagged for a closer look

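In 74 groups of values (37 named genes in 2 groups of tumors), 9 had a single tumor so far from the others that its gap over the range of the group passed the 95% critical value of Dixon's test, where chance flags about 1 group in 20. None of them belonged to the 9 osteoclast genes. F331 stood above the other p53-driven tumors for Tnfrsf11a (144 CPM, gap over range 0.91), Csf1r (495 CPM, 0.888), Syk (80.7 CPM, 0.892) and Prdm1 (65.8 CPM, 0.855). M664 stood above the other Myc-knockin tumors for Acp5 (481 CPM, 0.859), Ctsk (425 CPM, 0.743) and Mmp9 (1630 CPM, 0.924). M351 stood above the others for Tnfrsf11b (96.0 CPM, 0.752) and below them for Tln1 (161 CPM, 0.784). The causes were not tested.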

How the results depend on the processing

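No paired analysis was possible because the columns carry no replicate numbers that could be matched between the genotypes. Of the 9 genes, 7 were called with edgeR, 4 with library size alone, 3 with limma-voom, 8 with DESeq2, and 1 of the 2 that could be tested with at least 10 counts in every tumor. Of the pathway genes, 24 were called, 4 with library size alone, 46 with DESeq2 and 41 with limma-voom. Of all genes, 809 were called (348 higher), 136 with library size alone (50 higher), 971 with upper-quartile normalization (626 higher), 494 among all genes with at least 1 count, 1316 with at least 10 counts in every tumor (785 higher), 2241 with DESeq2 (1262 higher), 1663 with limma-voom (663 higher), 1136 with the background subtracted (621 higher) and 4595 without the 4 libraries with satellite reads (2594 higher). The median log2 fold change of all genes was 0.14, and 0.24 with upper-quartile normalization, 0.03 with library size alone and -0.04 with limma-voom. Calcr had a log2 fold change of -6.20 without the 4 libraries with satellite reads.

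With single tumors left out, the calls ranged from 0 to 7 of the 9 genes, from 1 to 30 pathway genes and from 5 to 1588 of all genes, with the lowest counts without F325, F331 or F368. Log2 fold changes ranged from -5.67 to -3.93 for Dcstamp, -4.17 to -2.83 for Ocstamp, -5.09 to -3.96 for Oscar, -5.11 to -3.97 for Calcr, -2.50 to -1.94 for Nfatc1, -3.25 to -2.36 for Siglec15, 0.79 to 1.53 for Trem2, -2.63 to -1.80 for Tyrobp and -1.97 to -1.25 for Itgb3. Tnfrsf11b ranged from -1.53 to 0.45 and Ramp1 from -1.32 to 0.01. Tnfrsf11b changed sign with limma-voom (0.33), without both M624 and M664 (0.31), without F368 (0.45) and without M624 (0.02), and Ramp1 without M408 or M624 (0.01 each) and over the 5 libraries with almost no satellite reads (0.37). The causes were not tested. With a prior count of 0.5 the 3 nearest genes stayed the same for 7 of the 9 genes. Depth limits Dcstamp, Ocstamp, Oscar, Calcr and Siglec15 in M351, M408 and M9, at 12 reads or fewer each.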
